A study of Homo sapiens with 30 samples.

Results

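Lineages 22 and 45 are wild-type lineages of the human triple-negative breast cancer cell line MDA-MB-231, and the genes described here are those that responded to co-culture differently in one than in the other. The 12 libraries used, of 30 in the series, fall into 4 groups of 3: each lineage alone for about 24 h (isolation), and each lineage sorted by FACS after 15 days among the 6 members of a co-culture that went through a bottleneck at every passage, 3 days apart. All 4 groups grew in RPMI-1640 with 10% dialyzed fetal bovine serum and 2 mM L-glutamine, and the labels name no drug or other agent. By its title the series concerns clones that exchange soluble metabolites. The labels do not give how a lineage was founded or which other cells came through the sort. Of 26475 genes measured, 14411 were expressed enough to be tested, and the response of 2303 of them (16%) differed between the lineages. The response difference is the log2 change of lineage 22 minus the log2 change of lineage 45, tested with edgeR's quasi-likelihood test and Benjamini-Hochberg adjustment at 0.05. "Higher" below means a larger or more positive change in 22, and "lower" a smaller or more negative one.

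Cells grown in a mixed culture share medium and touch each other, and inflammatory cytokines, interferon, growth factors and metabolites released by some cells alter transcription in the others. NF-kappaB turns on cytokine and chemokine genes, interferon acts through STAT factors on elements before the interferon-stimulated genes, SREBP factors raise sterol and fatty acid synthesis when membranes lack sterol, and E2F factors turn on replication genes before S phase. MDA-MB-231 is known for a mesenchymal state and for constant NF-kappaB activity.

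The libraries held 29.8 to 38.8 M estimated counts each, and replicates varied with a biological coefficient of variation of 10.8%, pooled over the 4 groups. The groups differed in this spread. Between 2 replicates, a chi-square per gene was 6.03 to 8.79 in isolated 22 and 15.6 to 45.6 in co-cultured 22. In isolated 45 it was 7.61 to 25.5, and in co-cultured 45 it was 18.8 to 45.6. Identity genes of the cell line were read in all 4 groups. VIM, the mesenchymal filament vimentin, lay between 3566 and 6023 counts per 1e6 counts (CPM) in group mean. The estrogen receptor gene ESR1 and the progesterone receptor gene PGR lay at or below 0.103 CPM in every group mean. The receptor gene ERBB2 was not low, at 71.3 to 98.5 CPM, and the epithelial gene EPCAM lay between 4.94 and 6.12 CPM. A list of 10 luminal breast markers, ERBB2 and EPCAM among them, summed to 1353 to 3336 CPM in a library. Co-culture libraries differ from isolation libraries also in culture time, sorting and RNA kit, which cannot be told apart from co-culture itself. The nuclear RNA MALAT1 was at 302 ± 17.1 CPM in isolated 22 and 31.4 ± 24.2 in co-cultured 22, and at 149 ± 3.62 in isolated 45 and 27.2 ± 14.2 in co-cultured 45 (mean ± SD, n = 3), and the part of RNA recovery in the differences was not tested. The third library of co-cultured 22 stood apart with 19134 genes above 0, where the other 11 had 16229 to 17485. Whether replicate libraries stem from separate cultures is not given in the labels, so p-values measure only the spread between these samples. In bulk RNA, fewer cells of a kind and less RNA in each cell cannot be told apart.

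Lineage 22 responded in more genes than lineage 45: 4081 rose and 4018 fell in 22 (56.2% of those tested), against 2675 and 3133 in 45 (40.3%). In the response difference 1238 genes were higher in 22 (8.59% of those tested) and 1065 lower (7.39%). The median over all tested genes was 0.02 log2. Among the higher genes, 656 rose in 22 with no call in 45, 222 fell in 45 with no call in 22, 194 rose in both and 38 fell in both. Among the lower genes, 490 fell in 22 with no call in 45, 166 rose in 45 with no call in 22, 203 fell in both and 59 rose in both. Opposite calls were made for 110 genes that rose in 22 and fell in 45 (0.763%) and for 133 that fell in 22 and rose in 45 (0.923%). Without isolated 45 replicate 1 or 2, or co-cultured 45 replicate 2, the first count was 68, 64 or 71 in place of 110. The remaining 18 and 14 genes were called in neither lineage alone. The lower genes had the larger differences: 499 of them differed at least 2-fold, against 89 of the higher genes. Under scaling by library totals in place of TMM the calls were 662 higher and 1279 lower, a share of 34.1% higher against 53.8%, with the median over all genes at -0.08. Without the third library of co-cultured 22 they were 1143 and 1045. Same-numbered co-culture libraries of the lineages correlated (0.641, 0.423 and 0.360), but the labels do not give what a number shares. A block that takes them as pairs gave 2132 higher and 1693 lower.

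**Figure D1:**
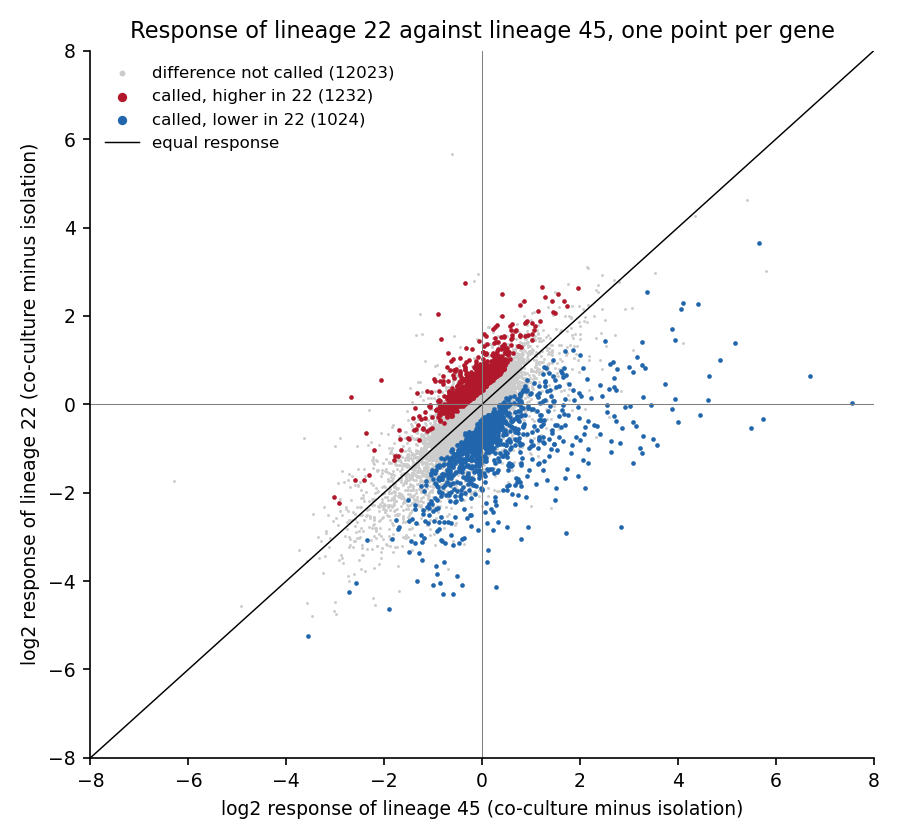
Response of each gene in lineage 45 (horizontal axis) and lineage 22 (vertical axis), as log2 of co-culture over isolation. Genes with 3 or fewer counts in a group are left out, which leaves 1232 red points (called higher in 22) above the line of equal response and 1024 blue points (called lower) below it, and the blue points reach farther from the line.

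For most called genes the levels of the isolated lineages lay apart in the direction opposite to the difference. Of the 1238 higher genes, 1144 had a lower estimated level in isolated 22 than in isolated 45, and of the 1065 lower genes, 986 had a higher level there. The median absolute gap between the lineages went from 0.46 log2 in isolation to 0.22 in co-culture for the higher genes and from 0.78 to 0.40 for the lower genes, beside 0.26 and 0.20 for all tested genes. The isolation gap is a term of the response difference itself, so these gaps describe the called genes and test nothing.

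Genes that changed in opposite directions are named where the smaller of their 2 changes was largest, 6 on each side, with positions on GRCh38 from GENCODE 29. CDK15 (chromosome 2, 201790461 to 201895550), of the cyclin-dependent kinase family, had 9.30, 9.20 and 8.07 CPM in isolated 22 and 20.2, 17.6 and 21.1 in co-cultured 22, against 17.2, 21.2 and 20.1 in isolated 45 and 14.7, 11.5 and 9.88 in co-cultured 45. It rose 2.22-fold in 22 and fell 1.62-fold in 45, and in neither lineage did isolation and co-culture libraries overlap (difference 1.85 ± 0.19 log2 ± SE, edgeR adjusted p = 2.64e-05). TBXAS1 (chromosome 7, 139777051 to 140020325), which encodes thromboxane synthase, had 4.46, 4.20 and 4.96 CPM in isolated 22 and 9.07, 6.25 and 9.35 in co-cultured 22, against 15.0, 14.2 and 13.4 in isolated 45 and 9.22, 6.86 and 9.85 in co-cultured 45. The difference was 1.57 ± 0.23, and the co-culture libraries of both lineages came to lie in the same range. ENPP1 (chromosome 6, 131808016 to 131895155), an ectoenzyme that splits extracellular ATP to pyrophosphate, had 51.0, 53.2 and 54.7 CPM in isolated 22 and 103, 81.2 and 89.0 in co-cultured 22, against 193, 213 and 191 in isolated 45 and 149, 107 and 123 in co-cultured 45. It rose 1.72-fold and fell 1.57-fold, and stayed lower in every 22 library than in any 45 library. LOXL1 (chromosome 15, 73925989 to 73952137), a crosslinker of elastin, had 9.12, 7.89 and 7.31 CPM in isolated 22 and 15.0, 13.5 and 13.4 in co-cultured 22, against 18.8, 16.7 and 14.4 in isolated 45 and 11.5, 9.64 and 12.3 in co-cultured 45. Its order of the lineages turned, with 45 above 22 in isolation and 22 above 45 in co-culture. ITGBL1 (chromosome 13, 101452593 to 101720856), a secreted protein related to beta integrins, rose 1.69-fold to 11.02 ± 1.74 CPM in 22 and fell 1.47-fold to 20.3 ± 1.22 CPM in 45. The RNA PKI55 (chromosome 2, 216216889 to 216220192) rose 1.55-fold and fell 1.74-fold.

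In the reverse direction, FAM133A (chromosome X, 93674013 to 93712274) had 22.4, 24.7 and 27.0 CPM in isolated 22 and 4.67, 3.29 and 2.71 in co-cultured 22, against 0.228, 0.432 and 0.601 in isolated 45 and 3.24, 3.49 and 2.46 in co-cultured 45. Its levels went from far apart to nearly alike, with a fall of 6.91-fold in 22 and a rise of 7.13-fold in 45 (difference -5.62 ± 0.35, adjusted p = 2.77e-07). S100P (chromosome 4, 6693069 to 6697170), a calcium-binding protein, had 32.9, 23.3 and 24.3 CPM in isolated 22 and 7.78, 7.26 and 9.62 in co-cultured 22, against 1.17, 0.944 and 0.802 in isolated 45 and 2.69, 1.80 and 2.75 in co-cultured 45. It remained higher in each 22 library than in any 45 library after falling 3.26-fold and rising 2.50-fold. SRGAP3 (chromosome 3, 8980591 to 9363053), a GTPase-activating protein, fell 2.41-fold to 2.90 ± 0.377 CPM in 22 and rose 4.16-fold to 1.05 ± 0.209 CPM in 45. The pseudogene FKBP9P1 (chromosome 7, 55681074 to 55713252) fell 2.23-fold and rose 2.59-fold, and reads it shares with its parent gene make this value uncertain. RPS6KA6 (chromosome X, 84058346 to 84187907), a kinase of the RSK family, had 6.63, 5.93 and 6.87 CPM in isolated 22 and 0.641, 0.508 and 0.275 in co-cultured 22, against 0, 0 and 0 in isolated 45 and 0.143, 0.296 and 0.203 in co-cultured 45. Isolated 45 had no count of it, so its rise in 45 is given as at least 7.96-fold against a floor of 3 counts over the group. The long non-coding RNA LINC01602 (chromosome 8, 57855500 to 57984126) went from 6.55 ± 0.633 to 0.517 ± 0.0598 CPM in 22, and in 45 its count ratio was 7.24 (95% counting interval 2.15 to 38.0).

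**Figure D2:**
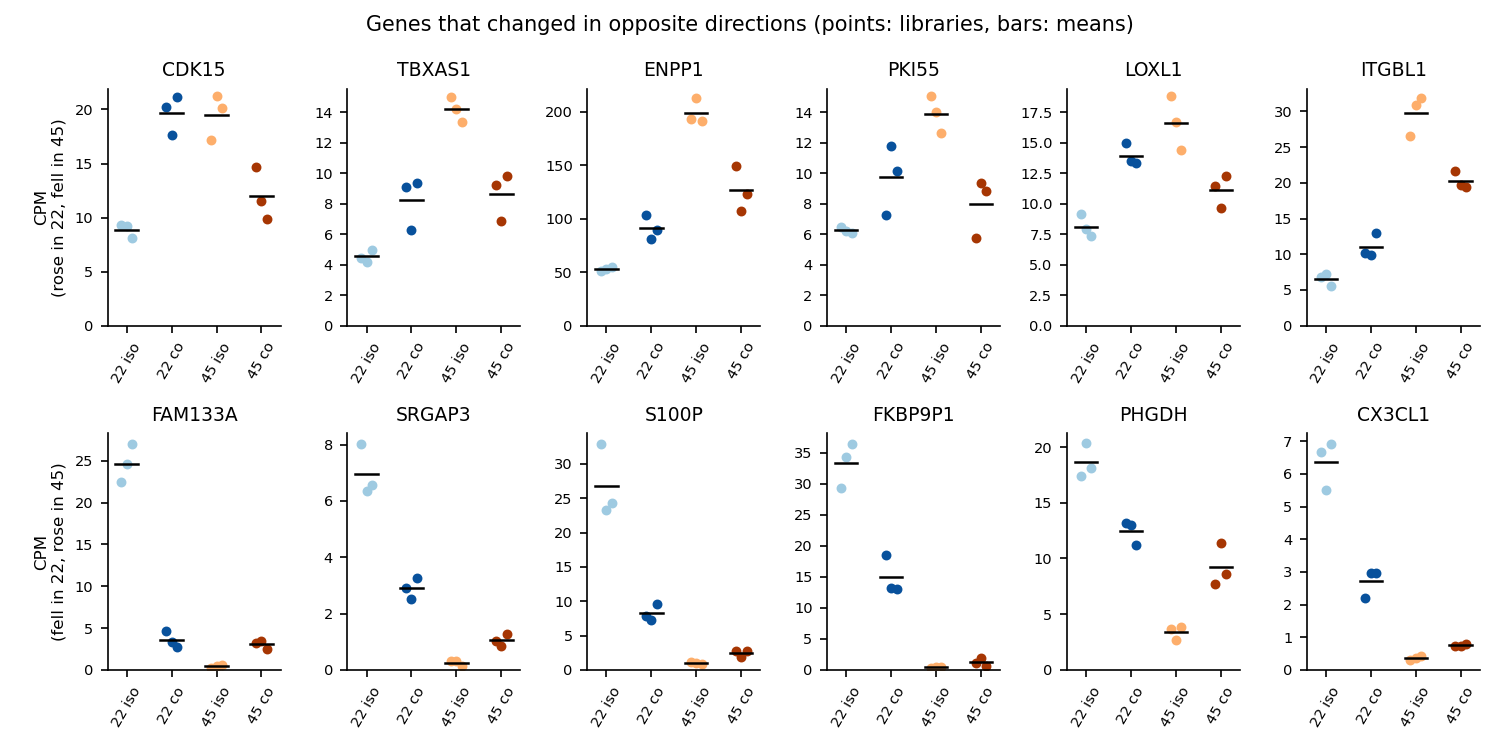
CPM in each library (points) and group means (bars) for 6 genes that rose in 22 and fell in 45 and 6 that fell in 22 and rose in 45, every panel starting at 0. In the upper row isolated 22 is the lowest group, and in the lower row isolated 45 is, with the co-culture groups between the isolation groups or near one of them.

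The most negative differences were in genes that were almost silent in isolated 45 and present in its co-culture libraries. MAGEB2 (chromosome X, 30215560 to 30220089), a cancer-testis antigen, had 37.5, 37.8 and 36.9 CPM in isolated 22 and 49.7, 54.2 and 53.1 in co-cultured 22, against 0, 0 and 0 in isolated 45 and 1.26, 3.55 and 2.26 in co-cultured 45. With no count in isolated 45 the rise there was at least 87.6-fold, and the response of 22 was not called. EMB (chromosome 5, 50396192 to 50443248), embigin, a membrane partner of monocarboxylate transporters, had 8.65, 8.08 and 8.41 CPM in isolated 22 and 9.71, 8.79 and 7.01 in co-cultured 22, against 0.057, 0.027 and 0.0501 in isolated 45 and 10.48, 9.23 and 7.36 in co-cultured 45. Only isolated 45 stood near 0, the co-culture groups overlapped each other, and the difference was -7.53 ± 0.34 (adjusted p = 8.56e-09). UGT8 (chromosome 4, 114598455 to 114678224), which makes galactosylceramide, had 16.2, 14.6 and 15.1 CPM in isolated 22 and 19.1, 21.7 and 19.2 in co-cultured 22, against 0, 0 and 0.0251 in isolated 45 and 2.72, 5.65 and 4.403 in co-cultured 45. Its count ratio in 45 was 475 (95% counting interval 84.9 to 18819.6). FRMD3 (chromosome 9, 83242990 to 83538546) rose in both, 1.56-fold to 43.4 ± 9.29 CPM in 22 and 103-fold to 16.9 ± 3.86 in 45. PTGFRN (chromosome 1, 116910057 to 116990358) had 0.88, 0.673 and 0.705 CPM in isolated 22 and 0.758, 0.598 and 0.412 in co-cultured 22, against 0.199, 0.081 and 0.175 in isolated 45 and 7.91, 8.16 and 8.72 in co-cultured 45, so that co-cultured 45 alone stood high. NLRP2 (chromosome 19, 54953130 to 55001142), of the inflammasome receptor family, had a count ratio of 229.7 in 45 (interval 78.3 to 1117) and rose 1.85-fold in 22. For the chloride channel gene ANO2 (chromosome 12, 5531869 to 5946232) the ratio in 45 was 135 (interval 23.7 to 5358), and for the receptor gene GPR158 (chromosome 10, 25174802 to 25602226), which fell 1.75-fold in 22, it was 74.3 (interval 20.2 to 620.1). Intervals and floors cover counting error only.

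Many of these genes mark isolated lineage 22. There were 36 such marker genes, at least 8-fold above isolated 45, with at least 5 CPM in isolated 22 and under 1 CPM in isolated 45. They include the 6 genes named for a fall in 22 and a rise in 45 (FAM133A, S100P, SRGAP3, FKBP9P1, RPS6KA6 and LINC01602), 6 of the other genes with the most negative differences (MAGEB2, EMB, UGT8, FRMD3, NLRP2 and GPR158), and CX3CL1 and C1S described below. Their summed level was 464 to 493 CPM in isolated 22, 358 to 388 in co-cultured 22, 10.9 to 12.8 in isolated 45 and 74.1 to 106 in co-cultured 45. In co-cultured 45 the marker genes stood at a median of 11.1% of their level in isolated 22, from 1.02% to 107.7%. A rise in 45 was called for 29 of 36, beside 2675 of all 14411 tested genes. Called lower in the difference were 34 of the 36, beside 1065 of all tested genes. Both counts follow in part from choosing these genes by isolation levels, which enter the response of 45 and the difference. The reverse set was small: 3 genes marked isolated 45, with a sum of 19.3 to 21.002 CPM there, 1.31 to 2.02 in isolated 22 and 4.93 to 5.22 in co-cultured 22. Most of this rise came from SEMA3E, with means of 0.952 CPM in isolated and 4.50 in co-cultured 22. PRSS2 went the other way, from 0.648 to 0.220 CPM. COX7B2 (chromosome 4, 46734827 to 46909235), a testis-enriched relative of a cytochrome oxidase subunit, is the remaining gene. It had 0, 0 and 0 CPM in isolated 22 and 0.408, 0.269 and 0.344 in co-cultured 22, against 7.18, 6.67 and 5.94 in isolated 45 and 14.04, 7.37 and 7.94 in co-cultured 45, a rise of at least 11.8-fold in 22. Which cells each sorted library holds, and their part in the response differences, was not tested. Without the 36 marker genes 1031 genes remained lower.

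**Figure D3:**
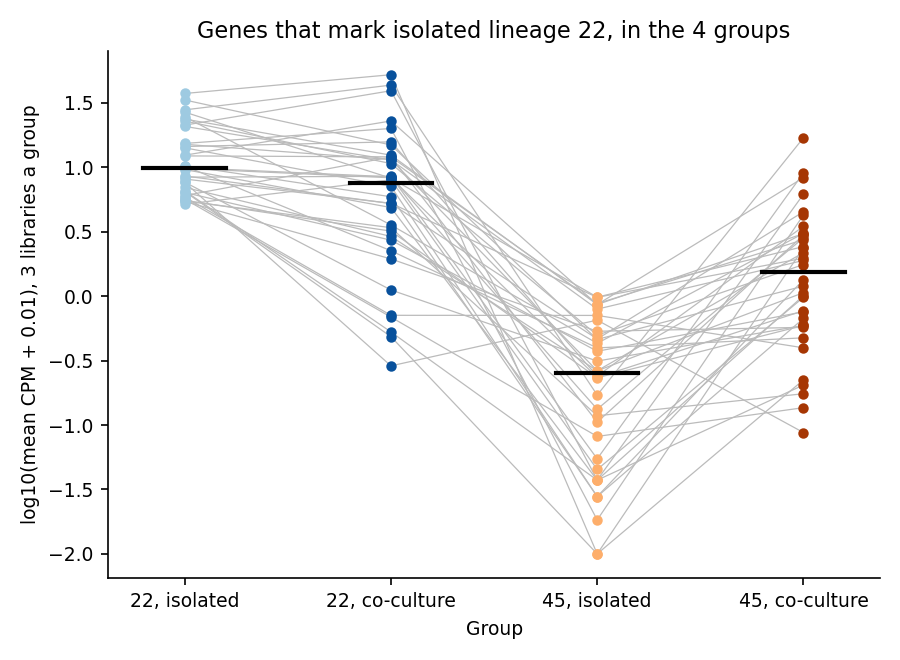
Mean CPM over 3 libraries of each of the 36 genes that mark isolated lineage 22, on a log10 scale after adding 0.01 CPM, in the 4 groups, with a line for each gene and a bar at the median. Isolated 45 is low by the choice of genes, and in co-cultured 45 most lines rise, to a median of 11.1% of the isolated 22 level.

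Among the largest positive differences was that of IGFBP4 (chromosome 17, 40443461 to 40457731), a secreted protein that binds insulin-like growth factors. It had 934, 897 and 947 CPM in isolated 22 and 2001, 1952 and 2713 in co-cultured 22, against 1839, 1747 and 1609.5 in isolated 45 and 1304, 1312 and 1539.9 in co-cultured 45. It rose 2.40-fold in 22 and fell 1.25-fold in 45 (difference 1.58 ± 0.16, adjusted p = 2.28e-05). DEF6 (chromosome 6, 35297852 to 35321771), a guanine nucleotide exchange factor, had 8.63, 8.30 and 8.82 CPM in isolated 22 and 23.2, 27.4 and 27.4 in co-cultured 22, against 24.4, 23.2 and 24.2 in isolated 45 and 22.5, 26.6 and 24.9 in co-cultured 45. Isolated 22 was low and the other 3 groups were alike, with a difference of 1.55 ± 0.13 (adjusted p = 3.7e-06). MARC1 (chromosome 1, 220786759 to 220819657), a mitochondrial reductase, rose 5.04-fold in 22 and 1.80-fold in 45. MAMDC2 (chromosome 9, 70043581 to 70226970) was higher in 22 than in 45 already in isolation and rose further, from 11.96 ± 0.722 to 38.9 ± 10.8 CPM in 22, beside 6.11 ± 0.669 and 7.09 ± 0.442 in 45. EVA1C (chromosome 21, 32412006 to 32515397) rose 3.45-fold in 22 and ADAM22 (chromosome 7, 87934143 to 88202889), a catalytically inactive ADAM protein, 2.39-fold, and neither was called in 45. B4GALNT3 (chromosome 12, 460364 to 563509), a glycosyltransferase, fell 1.94-fold in 45 and was not called in 22.

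Some chromosomes shifted over many or all of their genes. Of 475 tested genes of chromosome X, 268 were lower and 0 higher (2 at an unadjusted p under 0.05, and 0 with DESeq2), which is 25.2% of all lower genes in the data. The median difference there was -0.65, with medians of -0.80 for the response of 22 and -0.13 for that of 45, and 95.4% of X genes had a negative estimate. On chromosome 7, 219 of 700 genes were higher and 13 lower, with a median of 0.36 made of 0.06 in 22 and -0.30 in 45. Chromosome 4 had 102 lower and 4 higher of 526 genes (median -0.30), chromosome 19 had 240 higher and 46 lower of 1003 (median 0.23), and chromosome 17 had 123 higher and 36 lower of 868 (median 0.17). The shift ran along the whole chromosome for X and 7: in windows of 40 neighboring tested genes, all 12 windows of X had medians from -0.90 to -0.35 and all 17 windows of chromosome 7 from 0.20 to 0.50. On chromosome 4, 12 of 13 windows lay below -0.1. Chromosomes 19 and 17 were less even: 17 of 25 windows of 19 lay above 0.1 and 1 below -0.1, and 16 of 22 windows of 17 lay above 0.1.

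The libraries of a group agreed in these levels. Over 341 X genes with at least 5 CPM, the median deviation from the mean of the 12 libraries was 0.42 to 0.44 log2 in isolated 22, -0.32 to -0.23 in co-cultured 22, -0.01 to 0.02 in isolated 45 and -0.17 to -0.08 in co-cultured 45. Over 502 genes of chromosome 7 it was -0.23 to -0.21 in isolated 22, -0.10 to -0.09 in co-cultured 22, 0.29 to 0.30 in isolated 45 and 0.01 to 0.07 in co-cultured 45. On X the isolated 22 libraries stood high and on chromosome 7 the isolated 45 libraries did. Chromosomes 4, 7, 16, 17, 19, 21, 22 and X had a median beyond 0.1 in either direction. Outside these 8 chromosomes, genes with no known position included, 562 were higher (5.77%) and 550 lower (5.65%) of 9735, and members outside them are counted beside most gene groups below. The shares called in each group are to be read against these and against 8.59% higher and 7.39% lower of all tested genes. Some windows outside the 8 chromosomes also had medians beyond 0.1. Window medians ran from -0.10 to 0.26 on chromosome 1, from -0.37 to 0.13 on chromosome 6 and from -0.11 to 0.26 on chromosome 11. A member counted outside the 8 chromosomes can thus lie in a shifted stretch, and the part of such stretches was not tested. Of the genes named above, TBXAS1 and ADAM22 (chromosome 7), IGFBP4 (17), EVA1C (21), FAM133A, RPS6KA6 and MAGEB2 (X) and S100P and UGT8 (4) differed in the direction of the median of their chromosome, and COX7B2 (4), NLRP2 (19) and FKBP9P1 (7) against it.

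**Figure D4:**
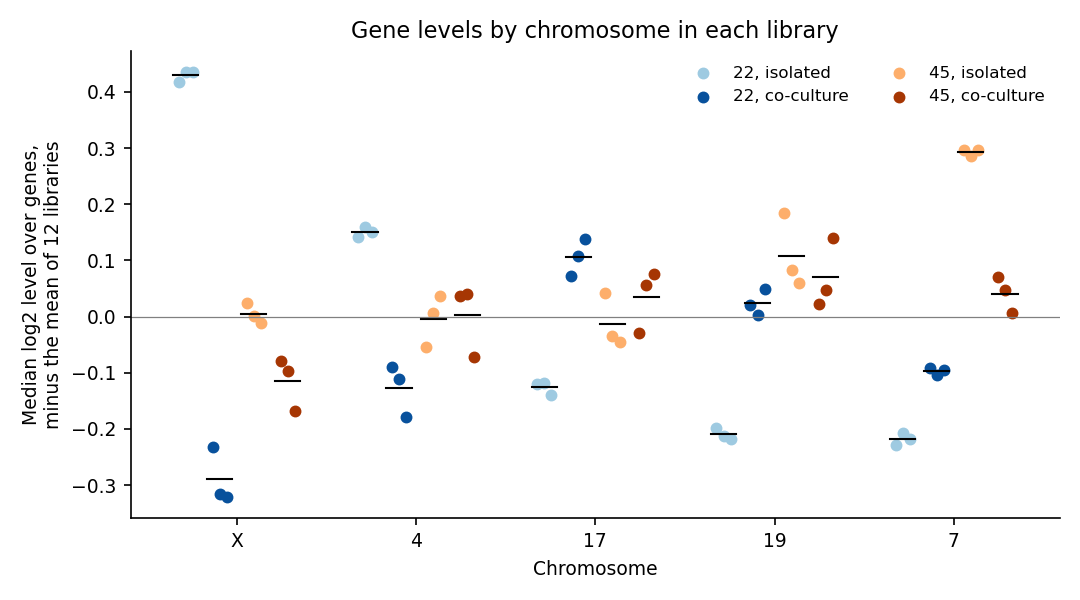
Median over the genes of a chromosome of the log2 level minus the mean of the 12 libraries, for each library (points) with group means (bars). X and chromosome 4 are highest in isolated 22, chromosomes 17 and 19 are lowest in isolated 22, and chromosome 7 is highest in isolated 45.

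Cytokine and chemokine genes and NF-kappaB targets were called in 1 direction, lower in 22. Of 33 tested members 10 were lower and 0 higher (also 0 at an unadjusted p under 0.05 and with DESeq2, which called 13 lower), against 7.39% and 8.59% of all genes, the median difference was -0.84, and 29 of 33 estimates were negative. CX3CL1 (chromosome 16, 57372458 to 57385048), the membrane-bound chemokine fractalkine, had 6.66, 5.51 and 6.92 CPM in isolated 22 and 2.22, 2.96 and 2.96 in co-cultured 22, against 0.313, 0.351 and 0.426 in isolated 45 and 0.716, 0.74 and 0.782 in co-cultured 45. It fell 2.35-fold in 22 and rose 2.03-fold in 45 (difference -2.26 ± 0.29, adjusted p = 0.000143), and it is 1 of the 36 marker genes of 22. CCL5 (chromosome 17, 35871491 to 35880793), a T cell attractant, had 4.14, 5.58 and 4.91 CPM in isolated 22 and 0.321, 0.628 and 0.722 in co-cultured 22, against 0.655, 0.54 and 0.526 in isolated 45 and 0.344, 0.444 and 0.232 in co-cultured 45, so that only isolated 22 stood high. TNFAIP3 (chromosome 6, 137867188 to 137883312), the feedback inhibitor A20, had 12.6, 12.2 and 11.3 CPM in isolated 22 and 3.21, 3.20 and 3.92 in co-cultured 22, against 11.03, 11.1 and 9.82 in isolated 45 and 5.59, 7.37 and 7.27 in co-cultured 45. The isolated lineages were close for TNFAIP3, and it fell 3.49-fold in 22 and 1.58-fold in 45 (difference -1.14 ± 0.19, adjusted p = 0.00108). The receptor gene TNFRSF9 (chromosome 1, 7915894 to 7943165) fell 5.63-fold in 22 to 0.405 ± 0.216 CPM and was not called in 45. IL1A, IL1B, CXCL1, CXCL2, IL32 and TRAF1 were the other members called. Outside the 8 shifted chromosomes 5 of 17 members were lower, and with a filter at 5 CPM, which drops the scarce cytokines, 3 were.

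The 250 bases before the start of TNFAIP3 and TNFRSF9, from RefSeq (GRCh38.p14, on the strand of the gene, whose RefSeq start can lie inside the GENCODE span), are shown because both hold the kappaB letters GGANTTTCC, searched on both strands and marked in capitals.
TNFAIP3 chr6:137867009-137867258 plus strand: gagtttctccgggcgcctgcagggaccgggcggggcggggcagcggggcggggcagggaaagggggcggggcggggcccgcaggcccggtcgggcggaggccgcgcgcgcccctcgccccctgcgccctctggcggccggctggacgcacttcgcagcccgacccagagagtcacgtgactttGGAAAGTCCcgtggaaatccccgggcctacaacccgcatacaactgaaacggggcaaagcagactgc
TNFRSF9 chr1:7940840-7941089 minus strand: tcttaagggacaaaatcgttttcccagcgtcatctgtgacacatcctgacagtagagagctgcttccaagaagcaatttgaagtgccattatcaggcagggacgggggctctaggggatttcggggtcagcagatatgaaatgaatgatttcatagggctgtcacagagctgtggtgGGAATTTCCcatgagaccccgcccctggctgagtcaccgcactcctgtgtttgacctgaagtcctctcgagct
The match begins 67 bases before the start of TNFAIP3 and 73 before that of TNFRSF9. Of 26 list members with a RefSeq promoter 13 held these letters (50%), against 401 of 27305 promoters of all genes (1.47%). Among the 8 lower members with a promoter 5 held them, and among the 18 not called 8 did. A match of letters is a description and not a binding site.

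Most interferon-stimulated genes fell in both lineages, and those called in the difference went both ways. Of 47 members 37 fell in 22 and 36 in 45, with median responses of -0.99 and -1.04. In the difference 9 were higher (19.1%, through a smaller fall or none in 22, or, for IFITM2, a rise there) and 6 lower (12.8%), 7 and 3 of them among the 33 outside the shifted chromosomes. ISG15 (chromosome 1, 1001138 to 1014540), a ubiquitin-like modifier, had 141, 138 and 131 CPM in isolated 22 and 108, 107 and 121 in co-cultured 22, against 210.2, 203 and 183 in isolated 45 and 105, 85.2 and 103 in co-cultured 45. It fell 1.22-fold in 22 and 2.04-fold in 45 (difference 0.74 ± 0.13, adjusted p = 0.00171). IFIT2 (chromosome 10, 89283694 to 89309276), which binds foreign RNA, fell 1.72-fold and 3.21-fold, and SAMD9L (chromosome 7, 93130055 to 93148369) 4.73-fold and 7.60-fold. RSAD2 (chromosome 2, 6865806 to 6898239), the antiviral enzyme viperin, was lower, with 19.7, 20.4 and 22.3 CPM in isolated 22 and 0.904, 1.02 and 1.41 in co-cultured 22, against 3.11, 4.48 and 4.51 in isolated 45 and 0.487, 0.592 and 0.753 in co-cultured 45. It fell 18.9-fold in 22 and 6.58-fold in 45 (difference -1.52 ± 0.30). The other higher members were IFIT1 and IFIT3, the neighbors of IFIT2 on chromosome 10, with IFITM2, OAS2, PARP12 and IFI44, and the other lower ones were DDX60, DDX60L, IFI27, XAF1 and IFI6.

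The promoters of ISG15, which was higher, and DDX60L, which was lower, are shown because both hold the interferon response letters GAAANNGAA, searched on both strands and marked in capitals.
ISG15 chr1:1013247-1013496 plus strand: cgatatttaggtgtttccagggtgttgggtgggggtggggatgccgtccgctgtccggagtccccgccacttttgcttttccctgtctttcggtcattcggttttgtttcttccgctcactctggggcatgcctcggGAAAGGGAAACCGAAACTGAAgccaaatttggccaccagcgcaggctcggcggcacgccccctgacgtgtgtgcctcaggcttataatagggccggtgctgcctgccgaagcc
DDX60L chr4:168480493-168480742 minus strand: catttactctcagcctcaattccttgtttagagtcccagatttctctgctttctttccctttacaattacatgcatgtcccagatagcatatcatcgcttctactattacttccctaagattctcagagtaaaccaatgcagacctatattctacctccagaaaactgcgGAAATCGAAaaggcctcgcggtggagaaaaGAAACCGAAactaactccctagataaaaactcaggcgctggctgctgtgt
ISG15 held 3 overlapping matches, the outer ones 113 and 101 bases before its start, and DDX60L held 2, at 80 and 50. Of 36 members with a RefSeq promoter 24 held the letters (66.7%), against 7.06% of all promoters. They were found in 5 of 6 higher, 5 of 6 lower and 14 of 24 uncalled members, so members of either direction held them.

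**Figure D5:**
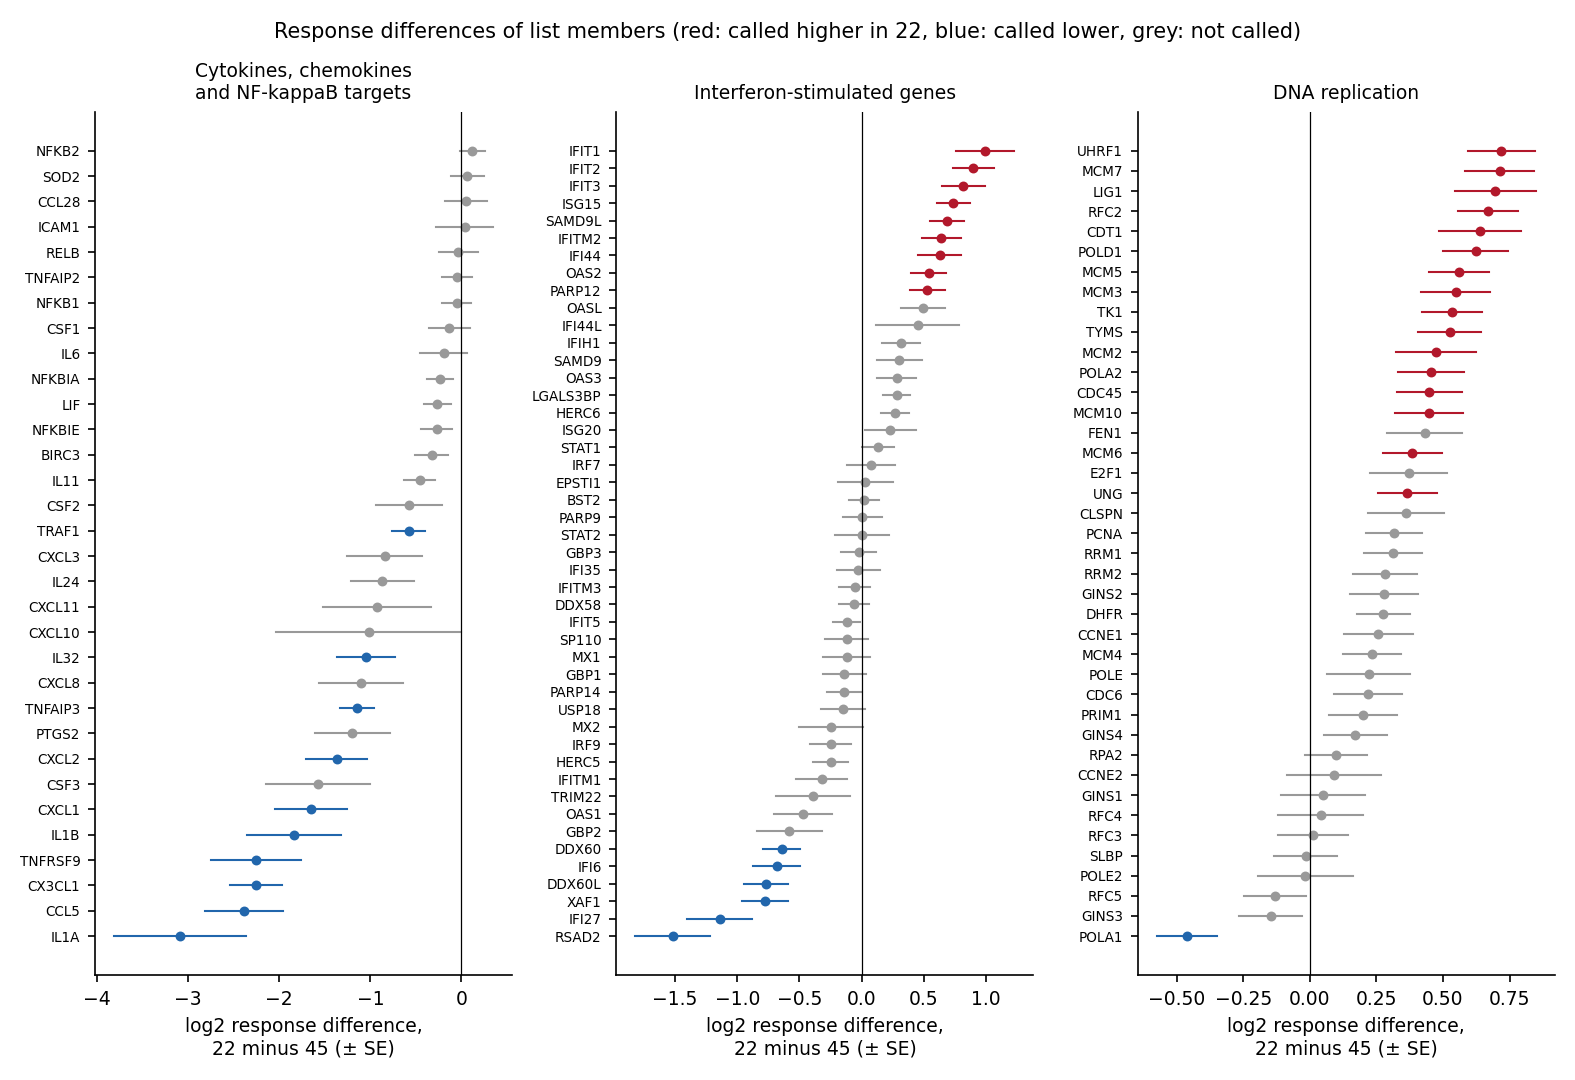
Response difference of each member with more than 3 counts in every group (points, ± SE) in 3 gene lists, with members called higher in red, lower in blue and not called in grey. Cytokine genes lie mostly below 0, interferon-stimulated genes on both sides, and DNA replication genes mostly above 0 with the X-linked POLA1 below.

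Genes of antigen presentation fell in both lineages, 27 of 28 in 22 and 26 in 45, and 5 (17.9%) were lower in the difference (median of the list -0.20). HLA-B (chromosome 6, 31269491 to 31357188), a class I heavy chain, had 764, 817 and 798 CPM in isolated 22 and 164, 145 and 192 in co-cultured 22, against 294, 284 and 265 in isolated 45 and 132, 124 and 144 in co-cultured 45. It fell 4.76-fold in 22 and 2.11-fold in 45 (difference -1.17 ± 0.14, adjusted p = 6.97e-05), which brought the lineages close to each other. HLA-F (chromosome 6, 29722775 to 29738528) fell 8.54-fold and 1.76-fold, HLA-C (chromosome 6, 31268749 to 31272130) 2.45-fold and 1.56-fold, and the peptide-trimming enzyme ERAP1 (chromosome 5, 96760810 to 96808100) 2.30-fold and 1.64-fold. Reads that fit several class I genes make the split between HLA-B, HLA-C and HLA-F uncertain. CTSS was also lower and CD74, the class II chaperone, was the single higher member. All 6 lie outside the shifted chromosomes, and the block on co-culture pairs gave 9 lower members. On chromosome 6, which holds HLA-B, HLA-C and HLA-F, window medians ran from -0.37 to 0.13, and the part of a local shift was not tested. In the complement list of 11 genes, C1S (chromosome 12, 6988259 to 7071032) and C1R (chromosome 12, 7080199 to 7092607), the proteases that start the classical pathway, were lower. C1S, 1 of the 36 marker genes of 22, fell 8.39-fold in 22 and 1.79-fold in 45, and C1R fell 2.41-fold in 22 and was not called in 45. CFD (chromosome 19, 859643 to 863630), which activates the alternative pathway, rose 2.30-fold in 22 and was the 1 higher member.

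Most fatty acid synthesis genes rose in both lineages, and those called in the difference rose more in 22. Of 18 members 14 rose in 22 and 13 in 45, 6 (33.3%) were higher in the difference and 0 lower (1 at an unadjusted p under 0.05, 0 with DESeq2), and the median difference was 0.32. FASN (chromosome 17, 82078333 to 82098332), the fatty acid synthase, had 251, 231 and 257 CPM in isolated 22 and 1511, 1259.5 and 1392 in co-cultured 22, against 391, 326 and 333 in isolated 45 and 943, 926 and 1197 in co-cultured 45. It rose 5.63-fold in 22 and 2.92-fold in 45 (difference 0.95 ± 0.15, adjusted p = 0.00108), so that 22 passed from below 45 to above it. ACLY (chromosome 17, 41866908 to 41930542), which makes cytosolic acetyl-CoA from citrate, rose 2.25-fold and 1.44-fold, and ACACA (chromosome 17, 37084988 to 37406818), the next enzyme, 2.42-fold and 1.36-fold. The desaturase FADS1 (chromosome 11, 61799625 to 61829318) rose 2.75-fold and 2.04-fold, and FADS2 and the citrate carrier SLC25A1 were the other members called. FASN, ACLY and ACACA all lie on chromosome 17, whose genes had a median of 0.17, and of 10 members outside the shifted chromosomes 2 were higher. With library totals 4 of the 18 were higher.

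Sterol genes rose in both lineages, 24 of 25 in each, with 4 higher (16%) and 3 lower (12%) in the difference. The lanosterol synthase LSS (chromosome 21, 46188141 to 46228824) rose 3.69-fold and 2.27-fold and ACAT2 (chromosome 6, 159760328 to 159779055) 4.65-fold and 3.32-fold. FDPS was also higher, and SC5D and the X-linked NSDHL were lower. Library totals gave 2 higher members and the block on co-culture pairs 8, and 1 lower member was called without isolated 22 replicate 2 or 3, co-cultured 22 replicate 2 or isolated 45 replicate 2. Of 13 genes of the liver X receptors, their targets and sterol efflux, 3 were higher (23.1%) and 1 lower (7.69%), against 8.59% and 7.39% of all genes. Outside the shifted chromosomes 1 of 8 was higher and 1 lower. There was 1 higher under library totals or without isolated 22 replicate 2 or 3, isolated 45 replicate 1 or 2 or co-cultured 45 replicate 2. ABCA1 (chromosome 9, 104781002 to 104928237), the cholesterol exporter, fell 38.1-fold in 22 and 11.8-fold in 45, from 51.8 ± 12.04 and 34.6 ± 10.0 CPM to 1.36 ± 0.135 and 2.92 ± 0.448. APOC1 (chromosome 19, 44914247 to 44919349), a lipoprotein component, rose 5.39-fold and 2.45-fold. LPCAT3 (chromosome 12, 6976186 to 7018510) and NR1H2 (chromosome 19, 50329653 to 50382982), the receptor itself, rose 1.64-fold and 1.33-fold in 22 and were not called in 45, and both differences were lost under several settings (adjusted p up to 0.105 and 0.112, edgeR or DESeq2).

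DNA replication genes were called almost all higher in 22. Of 40 members 16 were higher and 1 lower (40% and 2.50%, against 8.59% and 7.39% of all genes), the median difference was 0.31, and 35 estimates were positive. In the separate responses 24 rose and 2 fell in 22, and 9 rose and 7 fell in 45. UHRF1 (chromosome 19, 4903080 to 4962154), which recruits maintenance DNA methylation, had 163, 179 and 171 CPM in isolated 22 and 214, 219 and 236 in co-cultured 22, against 291, 287 and 284 in isolated 45 and 197, 230.4 and 255 in co-cultured 45. It rose 1.31-fold in 22 and fell 1.26-fold in 45, and the co-culture libraries of the lineages overlapped (difference 0.72 ± 0.13, adjusted p = 0.00168). MCM7 (chromosome 7, 100092728 to 100101940), a subunit of the replicative helicase, had 269, 273 and 246 CPM in isolated 22 and 373, 378 and 425 in co-cultured 22, against 503, 415 and 404 in isolated 45 and 387, 399 and 418 in co-cultured 45. RFC2 (chromosome 7, 74231499 to 74254458), of the clamp loader, rose 1.61-fold in 22, MCM7 1.49-fold, and neither was called in 45. POLD1 (chromosome 19, 50384204 to 50418016), the catalytic subunit of polymerase delta, rose 1.22-fold and fell 1.26-fold. The other higher members were MCM2, MCM3, MCM5, MCM6, MCM10, CDT1, CDC45, LIG1, POLA2, TK1, TYMS and UNG, and POLA1 on chromosome X was lower. UHRF1, MCM7, RFC2 and POLD1 lie on chromosomes 7 and 19. Outside the shifted chromosomes 7 of 25 members were higher and 0 lower, against 5.77% and 5.65% of all genes there, and with library totals 10 of 40 were higher.

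The promoters of UHRF1 and MCM7 are shown because both hold the E2F letters TTTNNCGC, searched on both strands and marked in capitals.
UHRF1 chr19:4909251-4909500 plus strand: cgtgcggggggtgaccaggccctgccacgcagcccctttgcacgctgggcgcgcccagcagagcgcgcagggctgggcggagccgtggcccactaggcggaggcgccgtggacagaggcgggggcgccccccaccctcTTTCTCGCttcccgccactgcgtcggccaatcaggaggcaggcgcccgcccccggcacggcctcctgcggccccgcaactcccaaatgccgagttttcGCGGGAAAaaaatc
MCM7 chr7:100101398-100101647 minus strand: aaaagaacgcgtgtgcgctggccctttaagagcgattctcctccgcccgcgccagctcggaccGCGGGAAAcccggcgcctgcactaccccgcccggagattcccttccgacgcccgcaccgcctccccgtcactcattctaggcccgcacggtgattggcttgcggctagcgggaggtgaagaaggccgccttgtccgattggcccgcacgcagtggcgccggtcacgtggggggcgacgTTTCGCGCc
Matches began 112 and 14 bases before the start of UHRF1 and 187 and 9 before that of MCM7. Of 34 members with a RefSeq promoter 15 held the letters (44.1%), against 5.93% of all promoters, among them 8 of 15 higher members and 6 of 18 not called.

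Mitosis genes gave fewer calls, 4 higher and 0 lower of 35 (median 0.23, with 1 lower at an unadjusted p under 0.05 and 1 with DESeq2). The higher share of 11.4% is near the 8.59% of all genes. ANLN (chromosome 7, 36389806 to 36453791), a cytokinesis scaffold on chromosome 7, rose 1.14-fold in 22 and fell 1.29-fold in 45 (difference 0.56 ± 0.11). The kinetochore genes NDC80 (0.36 ± 0.10) and CENPF (0.54 ± 0.16) and the kinase AURKB (0.43 ± 0.12) were the others, and the 3 were each lost under at least 4 settings (adjusted p up to 0.105, 0.118 and 0.0891, edgeR or DESeq2). There was 1 higher member without isolated 22 replicate 3 or isolated 45 replicate 1, 2 without isolated 22 replicate 1 or isolated 45 replicate 2, and 7 without co-cultured 22 replicate 1. Library totals gave 1, and the block on co-culture pairs 13.

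Targets of the stress factor ATF4 and genes of amino acid synthesis were called in 1 direction, lower in 22. Of 33 members 7 were lower (21.2%, against 7.39% of all genes) and 0 higher (against 8.59%, with 1 at an unadjusted p under 0.05 and 0 with DESeq2), and the median was -0.23. All 7 were among the 23 members outside the shifted chromosomes, where 5.65% of all genes were lower. PHGDH (chromosome 1, 119648411 to 119744226), the first enzyme of serine synthesis, had 17.4, 20.4 and 18.1 CPM in isolated 22 and 13.2, 13.0 and 11.2 in co-cultured 22, against 3.65, 2.70 and 3.88 in isolated 45 and 7.71, 11.4 and 8.60 in co-cultured 45. It fell 1.49-fold in 22 and rose 2.70-fold in 45 (difference -2.01 ± 0.22, adjusted p = 4.31e-05), and its gap between the lineages narrowed from both sides. DDIT3 (chromosome 12, 57516588 to 57521737), the stress factor CHOP, had 49.9, 52.0 and 39.3 CPM in isolated 22 and 24.0, 22.7 and 23.9 in co-cultured 22, and 31.8, 24.1 and 24.7 CPM in isolated 45 and 34.9, 31.6 and 26.6 in co-cultured 45. It fell 2.00-fold in 22 and was not called in 45. STC2 (chromosome 5, 173314713 to 173329503), a secreted glycoprotein, fell 4.58-fold and 1.59-fold, and CEBPB (chromosome 20, 50190734 to 50192689), a transcription factor of stress and inflammation, rose 1.63-fold in 45 with no call in 22. ATF3, DDIT4 and ALDH18A1 were also lower. Among 30 genes of heat shock and endoplasmic reticulum stress, 4 were lower (13.3%) and 1 higher (3.33%), or 7 lower without the third library of co-cultured 22. The chaperone HSPA5 (chromosome 9, 125234853 to 125241330), known as BiP, had 1501, 1707 and 1559 CPM in isolated 22 and 1191, 1264 and 1467 in co-cultured 22, against 1012, 882 and 1007 in isolated 45 and 1215, 1276 and 1207 in co-cultured 45. It fell 1.22-fold in 22 and rose 1.27-fold in 45, as did HERPUD1 (chromosome 16, 56932048 to 56944863), of the degradation pathway (1.38-fold and 1.21-fold). DNAJB9 (chromosome 7, 108569568 to 108574850), a co-chaperone of HSPA5, fell 3.10-fold in 22, against the upward shift of its chromosome 7, and the heat shock co-chaperone BAG3 (chromosome 10, 119651370 to 119677819) rose 1.45-fold in 22. DNAJC3 was lower too.

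Hypoxia and glycolysis genes were called in both directions, 10 lower and 5 higher of 41 (24.4% and 12.2%, against 7.39% and 8.59% of all genes, median -0.17), with 8 and 4 of 32 outside the shifted chromosomes. VEGFA (chromosome 6, 43770184 to 43786487), the angiogenic growth factor, had 279.8, 277 and 309 CPM in isolated 22 and 105, 78.4 and 83.4 in co-cultured 22, against 226, 230.1 and 212 in isolated 45 and 125, 112 and 123 in co-cultured 45. It fell 3.25-fold in 22 and 1.86-fold in 45 (difference -0.81 ± 0.14). EGLN3 (chromosome 14, 33924231 to 34462774), an oxygen sensor of the HIF pathway, fell 2.15-fold in 22 and was not called in 45. PDK3 (chromosome X, 24465221 to 24541862), a kinase that restrains pyruvate dehydrogenase, fell 2.08-fold in 22 and rose 1.38-fold in 45, and it lies on X. LOXL1, described above, was the higher member with the smallest p. SLC16A1, the lactate transporter MCT1, with PGK1, SLC2A3, MXI1, P4HA1, PDK1 and KDM3A were lower, and GPI, SLC2A1, HK2 and GAPDH were higher. The lower count was 6 without isolated 22 replicate 3, co-cultured 22 replicate 2 or co-cultured 45 replicate 1, and the block on co-culture pairs gave 9 higher.

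Matrix and adhesion genes held some of the smallest p-values. CDH11 (chromosome 16, 64943753 to 65126112), a mesenchymal cadherin, had 84.8, 75.9 and 73.3 CPM in isolated 22 and 5.74, 4.01 and 4.91 in co-cultured 22, against 59.2, 57.7 and 57.0 in isolated 45 and 23.2, 21.6 and 24.3 in co-cultured 45. It fell 15.9-fold in 22 and 2.51-fold in 45, which turned the order of the lineages (difference -2.66 ± 0.15, adjusted p = 1.29e-07). PCDH1 (chromosome 5, 141853111 to 141879246), a protocadherin, had 46.2, 42.8 and 48.4 CPM in isolated 22 and 9.30, 7.204 and 9.04 in co-cultured 22, against 8.29, 7.99 and 6.69 in isolated 45 and 9.05, 8.22 and 9.36 in co-cultured 45, so that 22 came down to the level that 45 had in both conditions. CDH4 (chromosome 20, 61252426 to 61940617), another cadherin, rose 3.42-fold in 22 and 2.13-fold in 45 to means of 148 ± 15.3 and 148 ± 17.3 CPM. ITGB4 (chromosome 17, 75721328 to 75757818), the integrin of hemidesmosomes, fell 1.38-fold in 45 and was not called in 22. With ITGAV these made 3 lower and 2 higher of 30 members, shares (10% and 6.67%) near those of all genes, or 6 and 7 with the block on co-culture pairs. In the matrix list 8 were lower (22.9%) and 5 higher (14.3%) of 35 (median -0.22), or 11 and 2 without the third library of co-cultured 22, and leaving out any of the other libraries gave 2 to 5 higher. TGFBI (chromosome 5, 136028895 to 136063818), a secreted adhesion protein induced by TGF-beta, had 319, 307 and 328 CPM in isolated 22 and 79.0, 72.5 and 82.6 in co-cultured 22, against 71.2, 69.5 and 58.7 in isolated 45 and 57.3, 58.1 and 65.6 in co-cultured 45. It fell 4.08-fold in 22 and was not called in 45 (difference -1.89 ± 0.13, adjusted p = 3.53e-07). SPARC (chromosome 5, 151661096 to 151687165), a collagen-binding matrix protein, fell 1.92-fold in 22 and rose 2.01-fold in 45. COL4A5 (chromosome X, 108439844 to 108697545), a basement membrane collagen on X, fell 6.24-fold and 2.24-fold, while COL13A1 (chromosome 10, 69801867 to 69964275), a transmembrane collagen, rose 1.98-fold in 22 with no call in 45.

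TGF-beta and YAP targets were split, 10 lower (31.2%) and 6 higher (18.8%) of 32 (median -0.04), 9 and 4 of 27 outside the shifted chromosomes, with 3 higher under library totals or without isolated 22 replicate 1 or 2. All 3 ID genes of the list, which encode inhibitors of basic helix-loop-helix factors, were lower. ID2 (chromosome 2, 8678845 to 8684453) had 8.04, 6.83 and 7.52 CPM in isolated 22 and 3.62, 4.39 and 3.81 in co-cultured 22, against 1.99, 1.78 and 1.38 in isolated 45 and 3.29, 3.70 and 3.62 in co-cultured 45. It fell 1.89-fold in 22 and rose 2.06-fold in 45 (difference -1.97 ± 0.22, adjusted p = 4.31e-05), and the co-culture libraries of the lineages met at 3.29 to 4.39 CPM. INHBA (chromosome 7, 41667168 to 41705834), the activin subunit, fell 2.62-fold in 22, and FST (chromosome 5, 53480409 to 53487134), follistatin, which binds activin, rose 2.64-fold, and neither was called in 45. F3 (chromosome 1, 94529225 to 94541800), tissue factor, fell 1.38-fold in 22 and rose 1.22-fold in 45. ANKRD1, BMP2, TGFB2, TGFBR1 and SKIL were lower with ID1 and ID3, and TGFB1, AXL, CTGF, BMP4 and NT5E were higher with FST.

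Epithelial genes were called 5 times lower and 4 times higher of 43, shares (11.6% and 9.30%) near the 7.39% and 8.59% of all genes, and all 4 higher ones lie on shifted chromosomes. The higher count was 1 or 2 without isolated 22 replicate 1 or 2, isolated 45 replicate 1 or 2 or co-cultured 45 replicate 2, and the block on co-culture pairs gave 9 lower and 7 higher. LSR (chromosome 19, 35248330 to 35267964), a lipoprotein receptor of tricellular junctions, had 13.2, 10.2 and 9.19 CPM in isolated 22 and 30.6, 28.9 and 30.3 in co-cultured 22, against 3.42, 2.37 and 2.33 in isolated 45 and 40.9, 40.9 and 42.9 in co-cultured 45. It rose in both, 2.76-fold in 22 and 15.4-fold in 45, and the order of the lineages turned (difference -2.48 ± 0.20, adjusted p = 2.04e-06). CD24 (chromosome 6, 106969831 to 106975627), a surface glycoprotein whose gene has copies that make its value uncertain, rose 2.28-fold in 45 and was not called in 22, and it stayed higher in 22. KRT81 (chromosome 12, 52285913 to 52291534) fell 2.43-fold in 22, and reads shared with KRT86, also lower, make it uncertain. The protease inhibitor SLPI (chromosome 20, 45252239 to 45254564) fell 3.69-fold in 22 and rose 4.30-fold in 45 at under 1 CPM in every library. Of 10 mesenchymal regulators and markers 3 were lower (30%) and 1 higher (10%), with 5 negative and 5 positive estimates and a median of -0.08. Outside the shifted chromosomes 3 of 9 were lower and 0 higher. SNAI2 (chromosome 8, 48917604 to 48921740) and SNAI1 (chromosome 20, 49982999 to 49988886), repressors of E-cadherin, fell 2.27-fold and 1.72-fold in 22 with no call in 45. FOXC1 (chromosome 6, 1609972 to 1613897) rose 1.43-fold in 45, a difference lost in 7 of 20 alternatives (adjusted p up to 0.0854, edgeR or DESeq2), and the receptor kinase AXL (chromosome 19, 41219203 to 41261766) rose 1.64-fold in 22.

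The 3 called receptors of the EGF family were higher in 22. ERBB3 (chromosome 12, 56076799 to 56103505) and ERBB2 (chromosome 17, 39687914 to 39730426) rose 1.89-fold and 1.38-fold in 22 with no call in 45. EGFR (chromosome 7, 55019021 to 55211628) and the ligand gene TGFA (chromosome 2, 70447280 to 70554193) fell 1.43-fold and 1.41-fold in 45 with no call in 22. EGFR lies on chromosome 7, and its difference of 0.66 ± 0.19 was lost in 7 of 20 alternatives (adjusted p up to 0.066, edgeR or DESeq2). AREG, a ligand on chromosome 4, was lower, which made 4 higher (33.3%) and 1 lower (8.33%) of 12 members, 2 and 0 of 6 outside the shifted chromosomes. Of 27 NRF2 targets and aldo-keto reductases 6 were higher (22.2%) and 3 lower (11.1%), with 1 lower without isolated 22 replicate 2 or 3, co-cultured 22 replicate 2 or isolated 45 replicate 2. NQO1 (chromosome 16, 69706996 to 69726951), a quinone reductase, had 366, 411 and 391 CPM in isolated 22 and 424, 494 and 484 in co-cultured 22, against 356, 369 and 427 in isolated 45 and 252, 272 and 246 in co-cultured 45. The isolated lineages overlapped for NQO1 and the co-culture groups did not, with a rise of 1.2-fold in 22 and a fall of 1.49-fold in 45 (difference 0.84 ± 0.13, adjusted p = 0.000613). TALDO1 (chromosome 11, 747329 to 765024), of the pentose phosphate pathway, rose 1.26-fold in 22, and AKR1B1 (chromosome 7, 134442350 to 134459284), on chromosome 7, fell 1.23-fold in 45. AKR1C3 (chromosome 10, 5035354 to 5107686), which reduces steroids and prostaglandins, fell 5.19-fold in 22 and 1.92-fold in 45, and its close relatives make its value uncertain.

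The other lists gave few calls, and several of these counts move with the setting. Cytosolic ribosomal protein genes rose in 54 of 56 cases in 22 and 55 in 45, with 3 higher and 1 lower in the difference, all 4 on shifted chromosomes. The 3 became 1 with library totals, 1 to 4 when 1 library was left out and 5 with the block on co-culture pairs. Nuclear-encoded respiratory chain genes gave 1 higher and 1 lower of 46 (1 to 3 higher when 1 library was left out, 5 higher and 2 lower with the block and 2 lower with library totals), aminoacyl-tRNA synthetases 3 and 0 of 20, immediate early genes 3 and 6 of 41 (2 to 7 lower when 1 library was left out), metallothionein and zinc genes 2 and 0 of 8 (0 to 2 higher when 1 library was left out, and 0 with library totals or outside the shifted chromosomes) and clustered histone genes 0 and 1 of 11. Of the genes that mark MDA-MB-231 3 of 10 were higher and 0 lower (5 higher with the block, 2 to 4 when 1 library was left out), and of luminal breast markers 1 of 7 and 0. Outside the shifted chromosomes 0 of 6 and 0 of 4 were higher in these 2 lists. Marker lists of other cell types gave 0 and 0 of 4 for fibroblasts, 0 and 1 of 5 for leukocytes and 1 and 1 of 6 for endothelium and erythroid cells. The leukocyte gene PTPRC lay at or below 0.483 CPM and the endothelial gene PECAM1 between 2.88 and 9.01 CPM in group mean. These lists were not silent as a whole. Summed in a library, the 9 fibroblast markers had 11.2 to 23.0 CPM and the 12 leukocyte markers 245 to 361. The 11 endothelial and erythroid markers had 99.5 to 155.

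Leaving out 1 library at a time gave 777 to 1416 higher and 791 to 1149 lower genes, with the fewest higher ones without isolated 45 replicate 1 (777), isolated 22 replicate 1 (786) or isolated 22 replicate 3 (798). None of the 2303 called genes was called in the opposite direction under any alternative.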

How the data were processed

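RNA of the 12 libraries, 3 in each of 4 groups, was read by stranded mRNA sequencing of paired reads, per the labels' protocols. STAR 2.6.1d, Salmon 1.4.0 and GRCh38 (hg38) are named in the submitters' processing notes. The annotation, the filters and the tool used for scaling are not given in the sources used here. The authors deposited estimated counts per gene that are scaled for transcript length but not for depth.

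The estimated counts were rounded to whole numbers and tested with edgeR 4.0.16 in R 4.3.3, using TMM factors (0.906 to 1.07), the filterByExpr filter on the 4 groups and a robust quasi-likelihood fit of these 12 libraries. Benjamini-Hochberg adjustment ran over all 14411 tested genes at 0.05. CPM values are TMM-normalized. Fold changes and log2 values come from the fit, and each SE is the log2 value over the root of the F statistic. At a depth of 29.8 to 38.8 M counts, the same test on simulated counts of 14305 genes recovered 65% of 2-fold and 86% of 4-fold response differences, with 11 false calls among 162. The simulation changed 200 genes, drew genes independently and gave each gene the same dispersion in all groups. The data had more calls, shifted chromosomes and a replicate spread that differed between groups, so these rates need not hold for them. Where a group had 3 or fewer counts in all, counts were summed per group and their ratio given with its 95% interval, or, at 0, as a lower bound from 3 counts per group. PCR copies are not independent molecules, so these cover counting error only.

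The co-culture libraries of 22 and 45 were taken as pairs by number only because their same-numbered deviations from the group means correlate at 0.641, 0.423 and 0.360. The labels do not give what a replicate number shares. The other pairs of groups have at least 1 correlation below 0.1. Correlations of similar size but negative occurred between isolated and co-cultured 45 (-0.391, 0.00059 and -0.590), so the pairing is an assumption.

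The genes, the 30 lists (809 of 810 symbols found, 8 through an older symbol) and the tests were chosen with earlier results of these data known. Among called genes at 5 CPM or more in a group mean, the 10 largest and 10 smallest differences and 6 and 6 genes of opposite direction are named. In each list described, up to 4 called members with the smallest p are named at any level. Other called members, MALAT1 and identity genes were named after their values were seen. Positions are from GENCODE 29 (GRCh38) and promoters from RefSeq (GRCh38.p14). Alternatives were DESeq2 1.42.0, RLE factors, library totals, no filter, a filter at 5 CPM in 3 libraries, all 18 libraries of the table, 2 replicate blocks, a 2-fold minimum, the omission of shifted chromosomes (median beyond 0.1) and of each library, with 2 added after seeing the data (without marker genes of 22, and without genes with 3 or fewer counts in a group). Lineage 35, in the same table, entered only the 18-library alternative, and the second table was not used here. Results of some genes are not reported here.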

Additional observations from a re-analysis of the deposited data

Results flagged for a closer look

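The responses of the lineages to the same change of culture were compared by the interaction test, and each value below stands apart because that test called it (edgeR, adjusted p at 0.05). The counts were 1238 genes higher and 1065 lower in 22. Single genes are given as log2 response differences ± SE (22 minus 45, n = 3 libraries in each of 4 groups).

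The largest positive differences were 1.85 ± 0.19 for CDK15, 1.58 ± 0.16 for IGFBP4, 1.57 ± 0.23 for TBXAS1, 1.55 ± 0.13 for DEF6, 1.49 ± 0.23 for MAMDC2, 1.49 ± 0.19 for MARC1, 1.48 ± 0.37 for B4GALNT3, 1.48 ± 0.22 for EVA1C and 1.47 ± 0.26 for ADAM22. The most negative were -6.05 ± 0.36 for FRMD3, -6.07 ± 0.38 for PTGFRN and -7.53 ± 0.34 for EMB. Where a group had 3 or fewer counts in all, the response of 45 is a count ratio of 475 for UGT8, 229.7 for NLRP2, 135 for ANO2, 74.3 for GPR158 and 7.24 for LINC01602, or at least 87.6-fold for MAGEB2 and 7.96-fold for RPS6KA6, and the response of 22 is at least 11.8-fold for COX7B2. Opposite changes gave 1.44 ± 0.16 for ENPP1, 1.44 ± 0.26 for PKI55, 1.36 ± 0.18 for LOXL1, 1.31 ± 0.18 for ITGBL1, -2.53 ± 0.43 for FKBP9P1, -3.03 ± 0.28 for S100P, -3.33 ± 0.33 for SRGAP3 and -5.62 ± 0.35 for FAM133A.

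Cytokines, chemokines and NF-kappaB targets gave -1.14 ± 0.19 for TNFAIP3, -2.25 ± 0.49 for TNFRSF9, -2.26 ± 0.29 for CX3CL1 and -2.39 ± 0.43 for CCL5. Interferon-stimulated genes gave 0.90 ± 0.16 for IFIT2, 0.74 ± 0.13 for ISG15, 0.68 ± 0.14 for SAMD9L and -1.52 ± 0.30 for RSAD2. Antigen presentation gave -0.48 ± 0.10 for ERAP1, -0.65 ± 0.13 for HLA-C, -1.17 ± 0.14 for HLA-B and -2.28 ± 0.29 for HLA-F. Complement components and regulators gave 0.90 ± 0.21 for CFD, -1.10 ± 0.23 for C1R and -2.23 ± 0.37 for C1S. Cholesterol synthesis and uptake gave 0.70 ± 0.15 for LSS and 0.49 ± 0.12 for ACAT2. LXR targets and sterol efflux gave 1.14 ± 0.28 for APOC1, 0.62 ± 0.18 for LPCAT3, 0.42 ± 0.12 for NR1H2 and -1.69 ± 0.35 for ABCA1. Fatty acid synthesis and desaturation gave 0.95 ± 0.15 for FASN, 0.84 ± 0.14 for ACACA, 0.64 ± 0.10 for ACLY and 0.43 ± 0.11 for FADS1.

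DNA replication gave 0.72 ± 0.13 for UHRF1, 0.71 ± 0.13 for MCM7, 0.67 ± 0.11 for RFC2 and 0.62 ± 0.12 for POLD1. Mitosis gave 0.56 ± 0.11 for ANLN, 0.54 ± 0.16 for CENPF, 0.43 ± 0.12 for AURKB and 0.36 ± 0.10 for NDC80. ATF4 targets and amino acid synthesis gave -0.59 ± 0.12 for CEBPB, -1.21 ± 0.18 for DDIT3, -1.53 ± 0.29 for STC2 and -2.01 ± 0.22 for PHGDH. Heat shock and ER stress gave 0.46 ± 0.11 for BAG3, -0.63 ± 0.13 for HSPA5, -0.73 ± 0.12 for HERPUD1 and -1.32 ± 0.23 for DNAJB9. Hypoxia targets and glycolysis gave -0.81 ± 0.14 for VEGFA, -1.36 ± 0.20 for EGLN3 and -1.52 ± 0.18 for PDK3. TGF-beta and YAP targets gave 1.07 ± 0.19 for FST, -0.75 ± 0.13 for F3, -1.97 ± 0.22 for ID2 and -1.98 ± 0.34 for INHBA. Matrix, collagens and proteases gave 0.89 ± 0.18 for COL13A1, -1.48 ± 0.26 for COL4A5, -1.89 ± 0.13 for TGFBI and -1.95 ± 0.39 for SPARC.

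Integrins, laminins and cadherins gave 0.73 ± 0.19 for ITGB4, 0.69 ± 0.15 for CDH4, -2.64 ± 0.17 for PCDH1 and -2.66 ± 0.15 for CDH11. Epithelial junctions and keratins gave -1.34 ± 0.21 for KRT81, -1.55 ± 0.22 for CD24, -2.48 ± 0.20 for LSR and -3.99 ± 0.69 for SLPI. EMT transcription factors and mesenchymal markers gave 0.51 ± 0.12 for AXL, -0.53 ± 0.16 for FOXC1, -0.96 ± 0.13 for SNAI2 and -1.05 ± 0.25 for SNAI1. EGF family ligands and receptors gave 0.89 ± 0.18 for ERBB3, 0.66 ± 0.19 for EGFR, 0.57 ± 0.11 for TGFA and 0.46 ± 0.12 for ERBB2. NRF2 targets and aldo-keto reductases gave 0.84 ± 0.13 for NQO1, 0.47 ± 0.12 for TALDO1, 0.46 ± 0.11 for AKR1B1 and -1.44 ± 0.25 for AKR1C3.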

How the results depend on the processing

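In place of 1238 higher and 1065 lower genes, library totals gave 662 higher, a block within co-culture libraries 2132 and 1693, a 2-fold minimum 89 and 499, and the omission of shifted chromosomes 562 and 550. The ordinary replicate block over all 4 groups gave 1219 and 1065, and DESeq2 1360 and 1227. Genes that rose in 22 and fell in 45 (110) numbered 72 with library totals, 67 with no gene filter, 22 with a 2-fold minimum and 46 without shifted chromosomes, and the reverse (133) 88 with the stricter filter and 75 without shifted chromosomes. Without those chromosomes the co-culture response of lineage 22 had 5199 calls and the co-culture response of lineage 45 had 3855. The chromosome medians were -0.75 (X), 0.26 (7) and -0.40 (4) with library totals, and that of chromosome 7 was 0.35 with RLE factors and 0.38 with no filter. The cause of these moves was not tested, except that fewer genes are counted without chromosomes or above 2-fold. Leaving out 1 library gave 777 to 1416 higher and 791 to 1149 lower genes, 64 to 157 that rose in 22 and fell in 45, 92 to 149 of the reverse, 7021 to 8522 and 4356 to 6436 calls in the responses of 22 and 45, and medians of -0.69 to -0.62 (X), 0.34 to 0.39 (7) and -0.32 to -0.28 (4). Without genes with 3 or fewer counts in a group there were 1232 higher and 1024 lower, and without the marker genes of 22 there were 1031 lower, both chosen after seeing the data. Of 2428 alternative values for 122 genes, 2324 stayed past the threshold, 104 lost it and 0 reversed, and 102 genes never lost it. These genes were picked for large differences, opposite changes or small p, so their share does not describe all called genes. Of the 1238 higher and 1065 lower genes, 757 and 829 were called again without isolated 45 replicate 1. Library totals kept 662 and 1061 of them. With the 5 CPM filter, which removes scarce genes from the test, 3 cytokine list members were called in place of 10.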
